A study of Mus musculus with 14 samples.

Results

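The 9 genes described here, across retina and brain, mark retinal ganglion cells (RGCs) or build the neuronal cytoskeleton: the POU-domain factors *Pou4f1*, *Pou4f2* and *Pou4f3*, the RNA-binding protein gene *Rbpms*, the synuclein gene *Sncg*, the neurofilament genes *Nefl*, *Nefm* and *Nefh*, and the surface glycoprotein gene *Thy1*. They were taken by name, and all 9 were among the 28316 genes of the retina matrix. The brain matrix listed 26528 genes and held 8 of the 9, without *Pou4f3*. For each gene, UMIs were summed over the nuclei of a cell type label in a library and given as CPM, the count per 1000000 UMIs of that label and library.

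The study removed the TGF-beta receptor gene *Tgfbr1* from endothelial cells and profiled nuclei of whole retina and of brain tissue enriched for vascular fragments. CKO mice (*Cdh5CreER;Tgfbr1 CKO/-*) carried *Cdh5CreER*, a tamoxifen-inducible Cre driven by an endothelial promoter, and received 4-hydroxytamoxifen on postnatal days 3 to 5. Controls were labelled wild type. According to the study's methods tissue was taken at the end of the second postnatal week, while the text of the series calls the animals young adults. The retina set has 1 control library and 11 CKO libraries, and the brain set has 1 library of each genotype. Brains were pooled, and how many mice gave each retina library is not stated in the sources. The Cre targets endothelial cells, not the neurons in which these genes are mainly known.

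RGCs are the only neurons that carry visual signals from the retina to the brain, through long axons that form the optic nerve. Members of the Pou4f family govern the differentiation and survival of RGCs, and RBPMS is widely used as a marker of nearly all RGCs. Neurofilaments are heteropolymers of light, medium and heavy subunits that fill large axons and set their calibre.

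The retina set held 77676 nuclei in 11 labels and the brain set 31324 nuclei in 21 labels. The retina control library had 11513 nuclei and 30989702 UMIs. The 11 CKO retina libraries ranged from 90449 UMIs in CKO replicate 4 to 55803724 UMIs in CKO replicate 5. In the brain the control library had 49798325 UMIs and the CKO library 31033373. The deposited metadata put the control and CKO replicates 1 to 3 in batch 1, CKO replicates 4 and 5 in batch 2 and CKO replicates 6 to 11 in batch 3. CKO replicates 8 to 11 were made with version 5 of the PIPseq kit and all other libraries with version 4 PLUS. *Xist*, which is transcribed from the inactive X chromosome of females, was at 6779 CPM in the control, from 5577 to 6823 in CKO replicates 1, 2, 4 and 7, and at 12.9 CPM or less in the other 7 CKO libraries. Genotype and the level of *Xist* are therefore partly confounded. Across retina libraries 10 barcodes occurred more than once, and in the brain 2 did.

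*Tgfbr1* itself was measured first. In whole retina the control stood at 89.0 CPM and the CKO libraries, without replicate 4, at 79.3 ± 4.87 (SD, n = 10), with a lowest value of 71.4, a median of 78.9 and a highest of 87.0. All 10 were below the control. CKO replicate 4 gave 365 CPM from 33 UMIs. In brain endothelial nuclei the control had *Tgfbr1* at 69.1 CPM (401 UMIs) and the CKO library at 62.9 (431 UMIs), a ratio of 0.910 with a 95% interval of 0.792 to 1.05. Over all brain nuclei the levels were 36.5 and 26.2 CPM, a ratio of 0.718 with a 95% interval of 0.660 to 0.780. UMIs counted near the 3' end need not report the deleted part, which the sources used here do not give, so these levels do not check the genotype labels.

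CKO replicate 4 of the retina stood apart. It held 104 nuclei and no rods, and 25 of its nuclei (24.0%) were labelled RGC. Those 25 nuclei had a median of 1043 UMIs and 36147 UMIs in all, of which 3 belonged to the 10 RGC marker genes: 1 to *Nefl* and 2 to *Slc17a6*. *Rbpms* had 0 UMIs there, which allows up to 83.0 CPM. Cone bipolar markers had 63 UMIs in the same nuclei, all of *Grik1*, and Müller glia markers 26. The RGC label of this library therefore goes against its markers. It fell below the minimum of 50000 UMIs per label and library, so the comparisons of RGC levels between genotypes rest on the control and 10 CKO libraries. Values pooled over all libraries include its 25 nuclei and are also given without them, a choice made after seeing the data. By the study's methods, clusters of this library and of CKO replicate 5 were also removed by hand before deposit. Whether the 104 nuclei are a part of the library is not known, and the part of this step in the shares and levels of both libraries was not tested.

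In the other libraries the RGC label could be set against few markers of its own. The 10 RGC marker genes include 8 of the 9 genes described here, and their sum is therefore no independent check of the label. They summed to 1298 CPM in control RGC nuclei and to 1263 ± 235 (SD, n = 10) in CKO RGC nuclei, with *Rbpms* the most abundant. The other markers were *Slc17a6* and *Isl1*. *Slc17a6* was at 107 CPM in control RGCs and 112 ± 27.9 (n = 10, lowest 81.4) in CKO RGCs, and RGC nuclei of all libraries held 86.5% of its UMIs. Its next label was horizontal cells at 6.47 CPM, with a highest CKO library of 17.2. *Isl1*, at 131 CPM in RGCs, was higher in rod bipolar cells (1137), cone bipolar cells (329) and GABAergic amacrine cells (133), so it does not set RGCs apart. The label held 1690 nuclei over all libraries, 2.18% of the retina, with a median of 8539.5 UMIs and 19090074 UMIs in all. Without CKO replicate 4 it held 1665 nuclei (2.15%), with a median of 8701 UMIs and 19053927 in all, and the pooled RGC level of *Rbpms* was 727 instead of 726 CPM. Markers of other retinal types were also counted in RGC nuclei: the 6 rod markers summed to 2264 CPM in control RGCs and to 2516 ± 616 in CKO RGCs, led by *Sag*, against 15397 CPM in rods themselves.

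The Pou4f genes were the most selective of the 9 for the RGC label together with *Rbpms*. Over all libraries *Pou4f1*, a factor of RGC and sensory neuron identity, stood at 64.5 CPM in RGCs, and the next label was horizontal cells at 4.22, a 15.3-fold difference. The lowest CKO library in RGCs (43.5 CPM) was above the highest in horizontal cells (10.6 CPM). The remaining 9 labels lay between 0.837 CPM in Müller glia and 2.93 in astrocytes, the latter from 3 UMIs, and their library ranges overlapped one another. *Pou4f2*, the member of the family that acts earliest in RGC differentiation, was at 17.0 CPM in RGCs and 0.984 in horizontal cells, 17.3-fold lower there and again with no overlap of the CKO libraries. In no other label did it exceed 0.469 CPM, the value of glycinergic amacrine cells. *Pou4f3*, best known as the hair cell factor of the inner ear and also used by some RGCs, was sparse, with 109 UMIs in the whole retina. Its level was 3.51 CPM in RGCs and 0.506 in cones, where 1 CKO library reached 3.08 CPM, inside the RGC range of 1.55 to 6.87. RGC nuclei held 79.3% of all *Pou4f1* UMIs, 80.4% of *Pou4f2* and 61.5% of *Pou4f3*.

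*Rbpms* was the gene most concentrated in RGCs, which held 92.6% of its UMIs. It stood at 726 CPM in RGCs, 75.2 in astrocytes and 55.5 in immune cells, and the lowest RGC library (487 CPM) was well above the highest astrocyte library (162 CPM). Astrocytes and immune cells did not differ beyond their library ranges, and the same held for horizontal cells at 17.7, Müller glia at 12.4 and GABAergic amacrine cells at 10.3. In glycinergic amacrine cells it was at 1.97, and cones (0.910), rod bipolar cells (0.873), cone bipolar cells (0.755) and rods (0.319) lay below 1 CPM. Rods, the most numerous label, thus carried almost none of it.

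*Sncg*, which encodes gamma-synuclein, a small axonal and presynaptic protein, was at 37.1 CPM in RGCs, and 56.1% of its UMIs fell in that label. Astrocytes followed at 7.81 CPM from 8 UMIs, then horizontal cells at 5.91 and immune cells at 5.63. The RGC libraries overlapped these labels at their lower end, since CKO replicate 7 had 5.72 CPM from 5 UMIs. The other 7 labels ran from 3.42 CPM in Müller glia to 1.69 in rod bipolar cells, with overlapping ranges.

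*Thy1*, a lipid-anchored glycoprotein of neuronal and T cell surfaces, was at 50.4 CPM in RGCs and 9.94 in GABAergic amacrine cells, 5.08-fold apart. No CKO library of GABAergic amacrine cells (highest 12.4 CPM) reached the lowest RGC library (36.4 CPM). GABAergic amacrine cells nevertheless held 23.6% of all *Thy1* UMIs against 54.3% in RGCs, since they were more numerous. From immune cells (6.00 CPM) through glycinergic amacrine cells (3.66) and horizontal cells (3.66) to rod bipolar cells (1.22) the libraries overlapped.

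The neurofilament genes reached further. *Nefl*, the light subunit on which filaments assemble, was at 79.8 CPM in RGCs, where 41.9% of its UMIs fell, and *Nefm*, the medium subunit, at 68.3 CPM with 52.0%. *Nefl* was next highest in astrocytes (21.5), horizontal cells (18.3) and immune cells (15.0), and *Nefm* in horizontal cells (12.8) and glycinergic amacrine cells (9.33). For both genes the library ranges of RGCs and of the next label overlapped. The remaining labels formed a low plateau, from 10.4 CPM in Müller glia to 7.08 in cones for *Nefl* and from 6.84 in astrocytes to 2.79 in rod bipolar cells for *Nefm*, without separation between neighbours.

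*Nefh*, the heavy subunit found in the thickest axons, did not follow this order. Its highest level was in astrocytes at 73.2 CPM, from 75 UMIs in 27 of 232 nuclei, and RGCs came second at 14.0. In the 6 CKO libraries with enough astrocyte UMIs it had a lowest value of 18.1, a median of 56.0 and a highest of 146 CPM, so the lowest astrocyte library lay within the RGC range of 7.22 to 21.3. The control gave 0 UMIs of 31274 in 12 astrocyte nuclei, which allows up to 95.9 CPM, so a difference between genotypes in astrocytes was not detectable at this depth. RGCs, horizontal cells (10.7), rods (10.1), immune cells (9.38) and GABAergic amacrine cells (8.56) did not differ beyond their library ranges. Rods held 33.4% of all *Nefh* UMIs, GABAergic amacrine cells 18.1% and RGCs 13.5%, so the summed retina reports this gene mostly from cells other than RGCs.

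**Figure D1:**
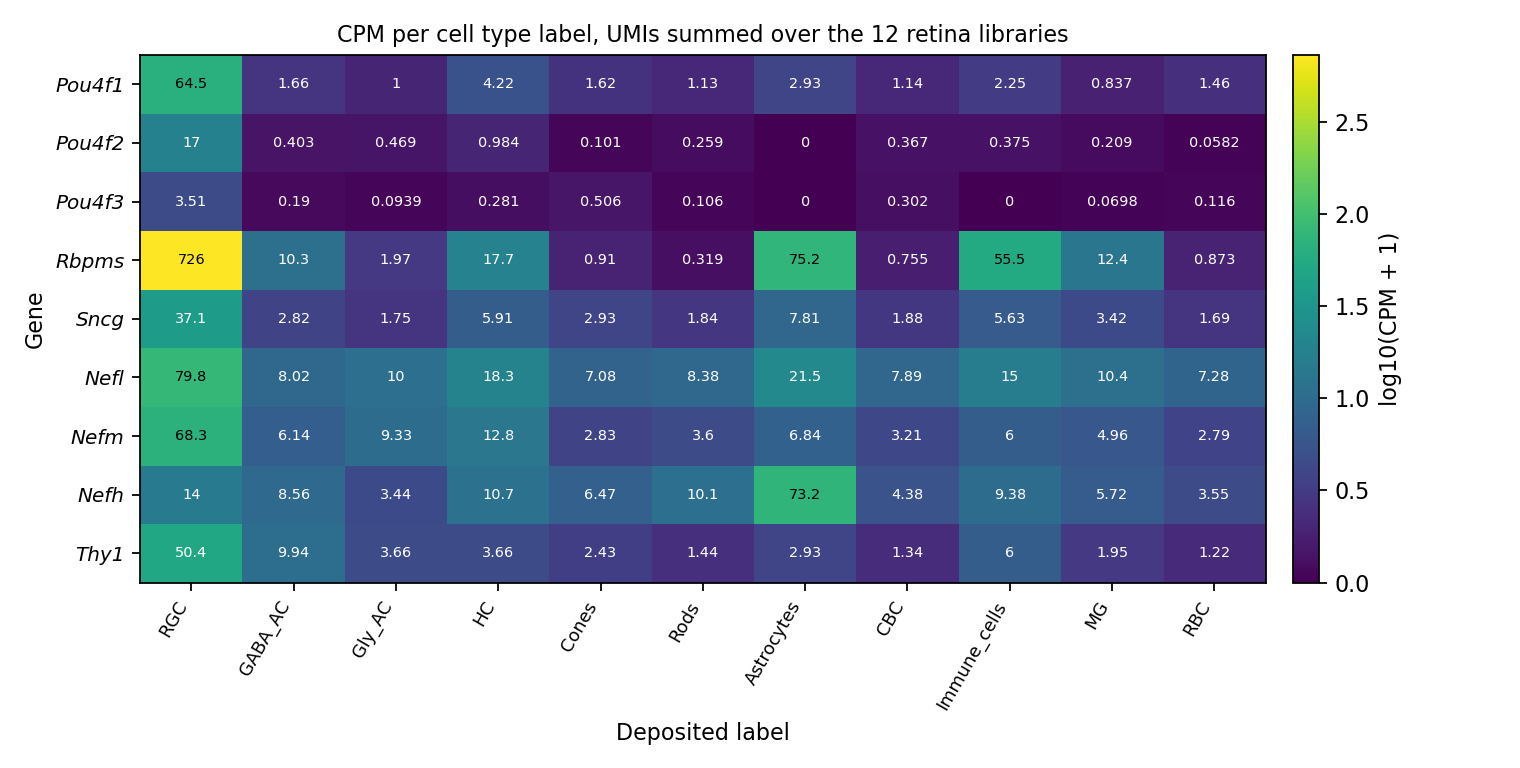
CPM of the 9 genes (vertical axis) in the 11 retinal labels (horizontal axis), with UMIs summed over all libraries, printed in each cell and coloured by log10(CPM + 1). RGCs are highest for 8 genes, from 3.51 CPM for *Pou4f3* to 726 for *Rbpms*, while *Nefh* is highest in astrocytes at 73.2.

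Positions are those of the mouse assembly GRCm39. *Pou4f1* lies on chromosome 14 from 104699112 to 104705504, *Sncg* on the same chromosome from 34092231 to 34100539, and *Pou4f2* and *Rbpms* on chromosome 8 from 79159638 to 79163278 and from 34272116 to 34420037. *Pou4f3* is on chromosome 18 from 42527433 to 42530354, *Thy1* on chromosome 9 from 43954332 to 43959880 and *Nefh* on chromosome 11 from 4888740 to 4898130. *Nefl* (chromosome 14, 68321268 to 68326544, plus strand) lies inside the annotated span of *Nefm* (68320039 to 68362305, minus strand). The sources do not state whether counting used strand, so the division of UMIs between *Nefl* and *Nefm* is uncertain.

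Shares of nuclei with at least 1 UMI followed the same division. *Rbpms* was seen in 1502 of 1690 RGC nuclei (88.9%) at a median depth of 8539.5 UMIs and in 0.0488% of 41020 rods at a median of 1064. After thinning every nucleus to 1000 UMIs, which left out 203 RGC nuclei and 19268 rods, the shares were 54.4% and 0.0322%. Without CKO replicate 4, which had no rods, the RGC shares of *Rbpms* were 90.2% and, thinned, 54.9%. The RGC nuclei without an *Rbpms* UMI were shallow, with a median of 839 UMIs (826 without CKO replicate 4) against 9557.5 in those with one. *Pou4f1* was seen in 38.2% of RGC nuclei and 0.173% of rods, and in 7.40% and 0.0828% after thinning. *Pou4f2* was seen in 13.5% of RGC nuclei (1.55% thinned) against 0.0366% of rods (0.0184% thinned). For *Pou4f3* these were 3.55% (0.605%) and 0.0171% (0.0230%). Pooled over libraries, each of these factors was thus well above its level in rods also at equal depth. For *Pou4f3* this rested on the CKO nuclei (0.711% of RGC nuclei and 0.0268% of rods, thinned). In the control both thinned shares were 0%, of 222 RGC nuclei and 3119 rods.

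The cytoskeletal and surface genes were counted in the same way. *Nefl* had a UMI in 41.2% of RGC nuclei, *Nefm* in 39.6%, *Thy1* in 37.2% and *Sncg* in 27.5%, and the shares in rods were 1.11%, 0.488%, 0.215% and 0.273%. Thinning brought the RGC shares to 6.93%, 7.26%, 4.91% and 3.36%, and those in rods to 0.694%, 0.230%, 0.101% and 0.129%. *Nefh* was the exception, seen in 11.9% of RGC nuclei and 1.47% of rods, but in 1.01% and 1.04% once depth was equal. Pooled over libraries, its thinned share in RGC nuclei therefore did not exceed that in rods. The thinned shares in RGC nuclei and rods were 0.901% and 0.705% in the control, and 1.03% and 1.09% in the CKO libraries.

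Between genotypes the thinned shares in RGC nuclei did not all differ the same way, after thinning had left out 7 control and 196 CKO nuclei. *Rbpms* was seen in 57.2% of control and 53.9% of CKO nuclei, *Pou4f1* in 7.21% and 7.43%, and *Nefm* in 7.21% and 7.27%. Unthinned shares were 95.6% and 87.8% for *Rbpms*, 46.7% and 36.8% for *Pou4f1* and 39.3% and 39.7% for *Nefm*, at median depths of 8555 (control) and 8539 UMIs (CKO). *Thy1* was seen in 6.76% of control and 4.58% of CKO nuclei after thinning (38.4% and 37.0% before), *Nefl* in 5.41% and 7.19% (39.7% and 41.5%) and *Sncg* in 2.25% and 3.56% (25.8% and 27.8%). Without CKO replicate 4, where 184 CKO nuclei were left out by thinning, the thinned CKO shares were 54.5% for *Rbpms*, 7.51% for *Pou4f1*, 7.35% for *Nefm*, 4.63% for *Thy1*, 7.27% for *Nefl* and 3.59% for *Sncg*. Unthinned they were 89.3%, 37.5%, 40.4%, 37.7%, 42.1% and 28.3%, at a median depth of 8716 UMIs. In rods, the background, the CKO share pooled over libraries differed by kit, and the control has version 4 only. *Nefl* had a UMI in 0.378% of 6621 control rods, 0.0778% of 25705 version 4 CKO rods and 4.72% of 8694 version 5 CKO rods, at median depths of 961, 856 and 2053 UMIs (0.224%, 0.0469% and 1.75% thinned). *Nefm* (0.106%, 0.0973% and 1.93%) and *Thy1* (0.0453%, 0.0350% and 0.874%) were likewise higher only in version 5 rods than in the control. The version 5 libraries differed among themselves, since *Thy1* had 0 rod UMIs in CKO replicate 8 and 33, 23 and 26 in replicates 9, 10 and 11. Pooled over libraries, *Nefh* was higher with both kits, at 0.861%, 1.11% and 2.98% (0.705%, 0.984% and 1.24% thinned). *Pou4f1* and *Sncg* had a UMI in 0 control rods, in 18 and 37 version 4 CKO rods and in 53 and 75 version 5 CKO rods. *Rbpms* was seen in 20 rods, all of version 5, *Pou4f3* in 1 version 4 and 6 version 5 CKO rods, and *Pou4f2* in 2, 6 and 7 rods of these groups (0.0321%, 0% and 0.0377% thinned). The rod UMIs of *Rbpms* came only from CKO replicates 10 (7 UMIs) and 11 (14 UMIs). The division of rods by kit was made after seeing the data. With 1 control library no test of these shares was made.

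Within single RGC nuclei the members were seen in varied combinations. At least 1 Pou4f gene had a UMI in 788 of 1690 RGC nuclei (46.6%): 124 of 229 in the control and 664 of 1461 in the CKO libraries (of 1436 without replicate 4). *Pou4f1* and *Pou4f2* were seen together in 110 nuclei, which is 17.1% of the nuclei with *Pou4f1* and 48.2% of those with *Pou4f2*. *Pou4f1* had a UMI in 36.6% of the nuclei without *Pou4f2*. The nuclei with *Pou4f2* were also deeper, at a median of 14237 UMIs against 7763.5 without it, and the part of depth in this difference was not tested.

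The 3 neurofilament genes were seen together in 117 RGC nuclei. Of the 201 nuclei with *Nefh*, 70.6% also had *Nefl* and 71.1% also had *Nefm*, against 37.3% and 35.4% of the nuclei without *Nefh*. Those with *Nefh* had a median of 19042 UMIs and those without it 7575, and the part of this gap was not tested. None of the 9 genes was seen in 134 RGC nuclei (7 control, 127 CKO), whose median depth was 748 UMIs. Of these, 24 were among the 25 nuclei of CKO replicate 4, and the other 110 had a median of 655 UMIs. All 9 were seen in 1 nucleus, of a CKO library, with 36618 UMIs.

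RGCs made up 1.99% of nuclei in the control retina (95% binomial interval 1.74 to 2.26, exact Clopper-Pearson). In the 11 CKO libraries the share had a lowest value of 1.65%, a median of 2.35% and a highest of 24.0%, with a mean of 4.26 ± 6.57 (SD, n = 11). The highest was CKO replicate 4, described above, and 8 of the 11 were above the control. The exact two-sided permutation test over libraries gave p = 0.417, where the smallest p this design allows is 0.0833. Without CKO replicate 4 the mean was 2.28 ± 0.405 (n = 10) and the exact p 0.636. In the batch of the control all 3 CKO libraries were above it, at 2.60 ± 0.288, with an exact p of 0.25, the smallest possible there. The batch of CKO replicates 4 and 5 and that of CKO replicates 6 to 11 hold no control. Without rods in the denominator 5 of the 11 CKO libraries were above the control (4.68%, CKO median 4.62%), and 4 of 10 without replicate 4. Over nuclei with at least 1000 UMIs the direction rested on CKO replicate 4: the control was at 2.88% and the CKO libraries at 7.65 ± 16.2 with it (n = 11, exact p = 0.583) and at 2.76 ± 0.852 without it (n = 10, exact p = 1.00). When nuclei were instead counted by at least 2 UMIs summed over *Rbpms* and the 3 Pou4f genes, the share was 2.00% in the control and 2.15 ± 0.404 in the 11 CKO libraries (exact p = 0.833).

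The comparison of genotypes within RGC nuclei asks whether removing *Tgfbr1* from endothelial cells was accompanied by altered RGC transcripts. None of the members passed the test. *Pou4f1* was at 68.4 CPM in control RGCs and at 61.9 ± 15.9 (SD, n = 10) in CKO RGCs, with a lowest value of 43.5, a median of 58.0 and a highest of 86.4. CKO replicates 5, 10 and 11 were above the control and the other 7 below it, so the groups overlapped. *Pou4f2* was at 14.8 CPM in control RGCs and at 17.5 ± 8.74 in CKO RGCs, from 6.19 through a median of 17.9 to 32.6, with 6 of 10 above the control. *Pou4f3* rested on 3 control UMIs, or 1.24 CPM, against 3.64 ± 1.89 in the CKO libraries, from 1.55 through 3.18 to 6.87 CPM. All 10 CKO libraries were above the control for *Pou4f3*, as were those of 1063 (4.20%) of the 25333 genes with a UMI in RGCs. *Pou4f3* was too sparse to enter the test, and with each nucleus weighted equally 8 of the 10 were above the control.

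*Rbpms* was at 745 CPM in control RGCs and 706 ± 153 (n = 10) in CKO RGCs, with a lowest value of 487, a median of 677 and a highest of 1002. CKO replicates 5, 6 and 11 were above the control. For *Sncg* the control had 32.2 CPM and the CKO libraries 33.8 ± 14.2, from 5.72 in CKO replicate 7 through a median of 36.4 to 55.8 in CKO replicate 5. For *Thy1* the control had 52.8 CPM and the CKO libraries 48.4 ± 10.9, from 36.4 through 45.8 to 72.0. CKO replicate 5 was the highest for *Pou4f1*, *Rbpms*, *Sncg* and *Thy1*, and CKO replicate 7 the lowest for *Pou4f1*, *Sncg* and *Nefl*, so the spread among CKO libraries exceeded their distance from the control.

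Among the neurofilament genes, *Nefl* was at 61.4 CPM in control RGCs and 80.0 ± 46.5 (n = 10) in CKO RGCs, with a lowest value of 19.5, a median of 73.9 and a highest of 159.6. For *Nefm* the control had 69.2 CPM and the CKO libraries 66.5 ± 22.2, from 30.2 through 62.0 to 98.7. For *Nefh* these were 15.7 and 13.7 ± 4.43 CPM, from 7.22 through 13.3 to 21.3. The control lay inside the CKO range for all 3, with 6, 4 and 3 CKO libraries above it. These levels sum UMIs, so deep nuclei weigh more, and some differed when each nucleus was weighted equally. As means over nuclei *Nefh* had a control level of 20.3 CPM and a CKO level of 11.4 ± 2.63 (n = 10), all 10 libraries below the control, as for 370 (3.02%) of the 12241 genes tested. *Nefm* then had a control level of 65.0 CPM and a CKO level of 87.3 ± 39.7, with 7 of 10 above. *Thy1* had 62.6 and 74.0 ± 45.3, with 4 of 10 above, so both CKO means then lay above the control. *Pou4f2* had 18.1 and 28.5 ± 17.1 CPM, with 6 of 10 above under either weighting. No test of the equally weighted levels was made.

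**Figure D2:**
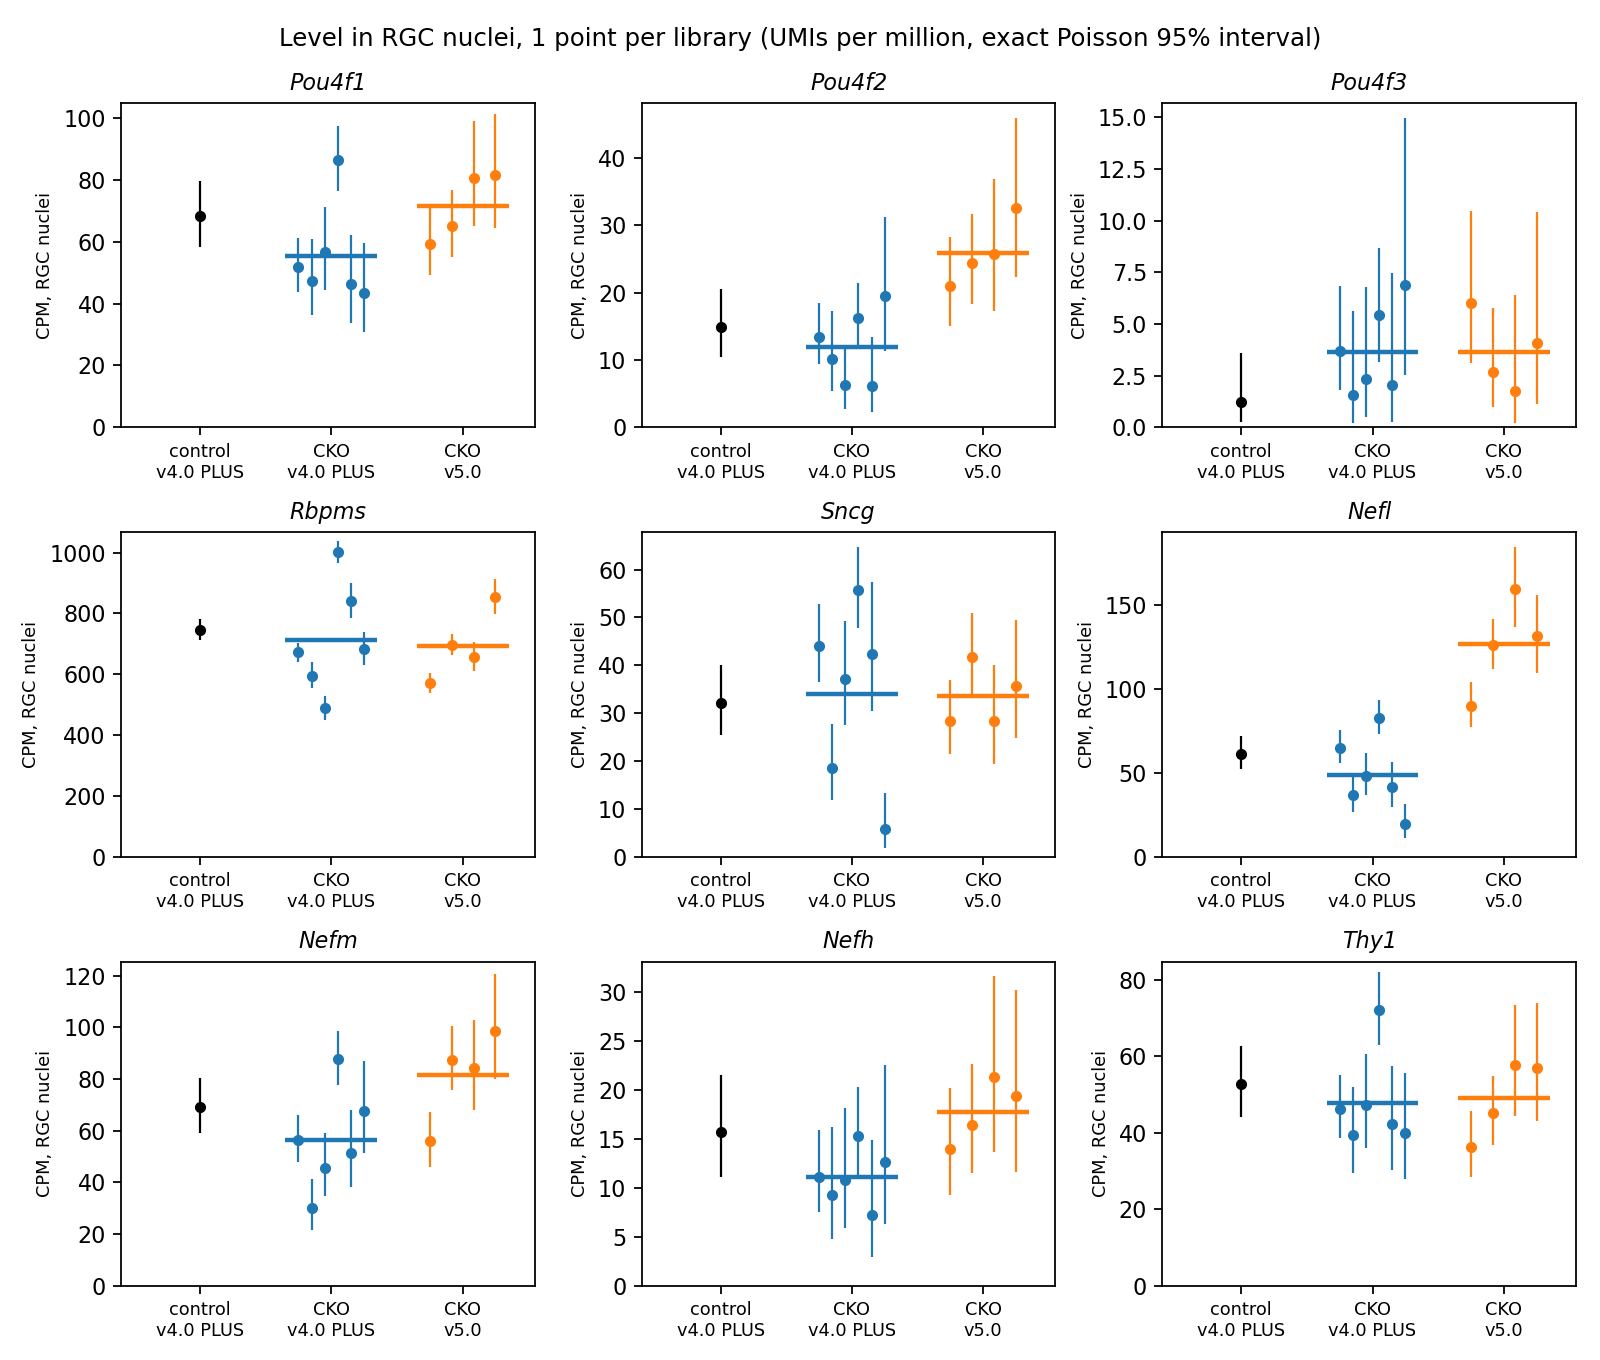
CPM of each gene in RGC nuclei, 1 point per library, for the control and the 10 CKO libraries used, by kit version. Vertical lines are exact 95% Poisson intervals, which cover counting error only, and horizontal bars are the means of the CKO libraries of a kit. For 8 genes the control lies inside the CKO range, and for *Pou4f3* it lies below all 10 at 1.24 CPM, although with each nucleus weighted equally the *Nefh* control was above all 10 and that of *Pou4f3* below 8; *Nefl* is higher in the 4 version 5 libraries (89.8 to 159.6) than in the others.

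The test used edgeR's quasi-likelihood fit to the RGC sums of 11 libraries, with the kit as covariate, over 12241 genes. It called 0 of the 8 members tested and 0% of all genes at an adjusted p of 0.05. At an unadjusted p below 0.05 it gave 257 genes (2.10%) and none of the members, and DESeq2 called 1 gene, the Y-linked *Eif2s3y*, named after its value was seen. Fitted log2 fold changes of CKO over control, with standard errors, were -0.29 ± 0.29 for *Pou4f1*, -0.30 ± 0.44 for *Pou4f2*, -0.09 ± 0.29 for *Rbpms* and 0.14 ± 0.53 for *Sncg*. They were -0.27 ± 0.42 for *Nefl*, -0.29 ± 0.37 for *Nefm*, -0.48 ± 0.34 for *Nefh* and -0.13 ± 0.29 for *Thy1*. The smallest unadjusted p was 0.181, for *Nefh*, and edgeR's adjusted p was 1.00 for each. With 1 control library its spread is assumed to be that of the CKO libraries. The signs of *Pou4f2* and *Nefl* depended on the kit term, since without it their log2 fold changes were 0.09 and 0.24. That of *Sncg* turned to -0.07 without CKO replicate 5. With only CKO replicates 1, 2 and 7, which like the control had over 1000 CPM of *Xist*, edgeR called 0 of 12395 genes, with 206 at an unadjusted p below 0.05, among them *Pou4f1* (-0.55, unadjusted p = 0.0363), and *Sncg* was at -0.36.

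In the batch of the control all 3 CKO libraries were below it in RGCs for 6 of the 9 genes (*Pou4f1*, *Pou4f2*, *Rbpms*, *Nefm*, *Nefh* and *Thy1*), all among the 8 members tested. This held for 2395 (19.6%) of the 12241 genes tested, and whether the shares differ was not tested. *Pou4f1* was at 51.9, 47.3 and 56.6 CPM in CKO replicates 1, 2 and 3 against 68.4 in the control. *Rbpms* was at 672, 595 and 487 CPM against 745, and *Nefm* at 56.4, 30.2 and 45.7 against 69.2. The fit to these 4 libraries gave log2 fold changes from -0.66 for *Nefm* to 0.06 for *Sncg*, and the smallest unadjusted p was 0.0205, for *Nefm*, with an edgeR adjusted p of 0.931. Of the 8 members tested, *Pou4f1*, *Rbpms* and *Nefm* had an unadjusted p below 0.05 there, as had 596 of 12416 genes, and none passed. The 5 genes called in that fit, named after their values were seen, were the globin genes *Hba-a1*, *Hba-a2* and *Hbb-bs* (log2 fold changes 4.47, 5.34 and 6.53) and *1700047F07Rik* and *Gm17167* (-3.02 and -1.67). Markers of other types moved in the same libraries. Of 10 marker lists of other retinal types 7 were above the control in all 3 CKO libraries, among them rods at 2585, 3358 and 2580 CPM against 2264 and cones at 148, 230 and 189 CPM against 89.0, while the immune list was below it in all 3. Their part in the member levels was not tested. In batches 2 and 3 there is no control to compare with.

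Between kits 1 member differed in RGCs. *Nefl* was at 127 ± 28.7 CPM (n = 4, 89.8 to 159.6) in the version 5 CKO libraries and at 48.8 ± 22.3 (n = 6, 19.5 to 82.9) in the version 4 CKO libraries, with no overlap. Its fitted log2 difference of version 5 over version 4 was 1.05 ± 0.26, with an edgeR adjusted p of 0.0276, and it was the 1 member called of 8 tested, beside 611 (4.99%) of 12241 genes. Within batch 3, which holds both kits, the log2 difference was 1.75 with an adjusted p of 0.0104, a fit chosen after seeing the data. It was again the 1 member called of 8, and the share of all genes called in that fit is not given here. *Pou4f2* was at 25.9 ± 4.87 CPM in version 5 and 11.9 ± 5.42 in version 4 libraries, a log2 difference of 0.83 ± 0.27 that missed the threshold (adjusted p = 0.0937). Median RGC depth moved with the kit too, from 15578 to 20042 UMIs per nucleus in version 5 libraries and from 4217 to 11182 in the 6 version 4 CKO libraries, and its part in the result was not tested. *Xist* moved with the kit as well, since all 4 version 5 libraries had 0.676 CPM of it or less. In the version 4 CKO replicates 3, 5 and 6, with 12.9 CPM or less of *Xist*, *Nefl* was at 48.0, 82.9 and 41.2 CPM, below all 4 version 5 libraries.

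Further genes of RGCs were described by 3 lists. Of 30 genes of RGC identity and subtype 25 were tested, 13 above and 12 below 0 with a median log2 fold change of 0.00. Of 30 genes of axon and cytoskeleton all were tested, 15 above and 15 below 0 with a median of 0.00. Of 20 genes of the RGC injury response 7 were tested, 4 above and 3 below 0, with a median of 0.00, and among those too sparse to test were *Atf3*, *Ddit3*, *Ecel1*, *Gal* and *Sprr1a*, named after their values were seen. The median over all 12241 genes was 0.01, and edgeR called 0 genes of these lists, none of which had an unadjusted p below 0.05; DESeq2's 1 call was in none of them.

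By the size of p, the genes nearest to a call in RGCs were *Gm17167*, *Bmp6*, *2410006H16Rik*, *Nedd9* and *Usp50* on the lower side in CKO and *Anapc11*, *Lipo2*, *Ghr*, *Ap5z1* and *Cckbr* on the higher. *Gm17167* was at 47.4 CPM in the control and 15.1 ± 3.65 (n = 10) in CKO RGCs, a log2 fold change of -1.68 ± 0.28 with an edgeR adjusted p of 0.308. *Bmp6*, a ligand of the TGF-beta superfamily, was at 42.5 CPM in the control and 12.2 ± 4.97 in CKO RGCs, with a log2 fold change of -1.78 ± 0.39. *Ghr*, the growth hormone receptor, was at 93.2 CPM and 150.0 ± 16.4, with a log2 fold change of 0.68 ± 0.19. Every CKO library lay on the same side of the control for these 3. They were picked by p from the same libraries, so this lends them no further weight. The edgeR adjusted p of all 10 genes but *Gm17167* was 1.00.

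Summed over all nuclei, where fewer RGCs and less RNA per RGC cannot be told apart, the members gave no call either. *Pou4f3* had the largest log2 fold change, 1.75 with p = 0.0747, from 0.129 CPM in the control to 0.459 ± 0.257 (n = 10, without replicate 4), and *Nefl* the lowest at -0.31. The sign for *Nefl* depended on the kit term: without it the log2 fold change was 0.53. Its control level was 9.81 CPM and its CKO level 14.7 ± 9.87 (n = 11). The edgeR fit called 0 of 9 members and 1 (0.00506%) of 19772 genes, *Gm17167* (log2 fold change -2.16, adjusted p = 0.00357), named after its value was seen, a call that was lost with the batch in place of the kit as covariate, in the batch of the control, where 4 other genes were called, and with only the CKO libraries of over 1000 CPM of *Xist*. At an unadjusted p below 0.05 there were 418 genes and no member (828 genes without CKO replicate 4, which this fit includes), and DESeq2 called 13 genes. By kit, *Nefl* (log2 difference 1.58, adjusted p = 0.000522), *Nefm* (0.77, 0.0236) and *Pou4f2* (0.70, 0.0341) were higher in version 5 libraries, 3 of 9 members beside 1675 (8.47%) of all genes. Within batch 3 *Nefl* (1.78) and *Nefm* (0.79) kept their call, *Nefh* was called too (0.89, adjusted p = 0.00984) and *Pou4f2* was not (0.52, 0.134). These were 3 of 9 members, and the share of all genes called in that fit is not given here to set beside them.

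The RGC label's part of each gene's UMIs differed between libraries. Over all genes together it was 7.83% in the control and from 4.88% to 10.8% in the 10 CKO libraries. For *Pou4f1* it was 91.2% in the control and from 68.9% to 85.9% in the 10 CKO libraries, all below the control. For *Rbpms* it was 94.4% in the control and from 84.7% to 95.4% in the 10 CKO libraries. For *Nefl* it was 49.0% in the control and from 17.9% to 61.0%, and for *Sncg* 79.6% in the control and from 12.5% to 77.4%, the lowest again in CKO replicate 7. *Nefh* never came mainly from RGCs, at 21.7% in the control and from 8.86% to 18.6%. All 10 CKO libraries were thus below the control for *Pou4f1*, *Sncg* and *Nefh*, 3 of the 8 members tested in RGCs, beside 188 (1.54%) of 12241 genes, a pattern looked for after the values were seen. Pooled over libraries, the share of rods with a UMI of these 3 genes was higher in CKO with both kits. Its part was not tested. Single version 4 CKO libraries varied. *Sncg* had 40 rod UMIs in CKO replicate 5 and 4 in replicate 3, but 0 in replicates 1, 2, 6 and 7. *Pou4f1* had 12 in replicate 1, 5 in replicate 5, 1 each in replicates 2 and 3, and 0 in replicates 6 and 7. In rods *Nefh* was below the control (7.09 CPM) in replicates 1 (6.98) and 7 (5.63). It was above the control in replicates 2, 3, 5 and 6.

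Outside RGCs the amacrine and horizontal cell fits tested fewer members. In GABAergic amacrine cells *Sncg* was at 0.721 CPM in the control, from 4 UMIs, and at 3.37 ± 1.26 (n = 10) in the CKO libraries, from 1.80 through 3.42 to 6.03. All 10 CKO libraries were above the control, as for 851 (6.05%) of 14060 genes tested. Its log2 fold change was 2.17 ± 0.75 with p = 0.0123 and an edgeR adjusted p of 1.00, so it did not pass. The fit called 0 of 7 members and 1 (0.00711%) of 14060 genes, again *Gm17167*, a call lost with only the CKO libraries of over 1000 CPM of *Xist* (0 genes called by edgeR, 211 at an unadjusted p below 0.05). All 10 CKO libraries together gave 227 genes at an unadjusted p below 0.05 (471 without CKO replicate 5) and 3 called by DESeq2.

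In glycinergic amacrine cells 0 of 5 members tested and 3 (0.0229%) of 13112 genes were called, with 581 genes at an unadjusted p below 0.05 and 32 called by DESeq2; the 3 were *Adamts19*, *Ak5* and *Antxr2*, named after their values were seen. The count depended on single libraries, with 9 genes called without CKO replicate 1 or 7 and 5 without CKO replicate 2. With only the CKO libraries of over 1000 CPM of *Xist* 1 gene was called, *Adamts19*, and the calls of *Ak5* and *Antxr2* were lost; that of *Antxr2* was also lost with the batch as covariate. Members ranged there from a log2 fold change of -0.67 for *Thy1* to 0.61 for *Nefm*. With single CKO libraries left out, *Thy1* ran from -1.40 to -0.49 and *Nefm* from 0.25 to 0.79. In horizontal cells 0 of 5 members and 0% of 10472 genes were called by edgeR, with 351 genes at an unadjusted p below 0.05 and 0 called by DESeq2 (without CKO replicate 5, 648 genes and 1 called by edgeR), and members ranged from -0.78 for *Nefm* to 0.74 for *Nefl*. By kit, *Nefl* was higher in version 5 libraries in glycinergic amacrine cells (log2 difference 1.33, adjusted p = 0.0103, 1 of 5 members beside 9.68% of genes), as in RGCs, but missed the threshold within batch 3 (1.32, adjusted p = 0.0536). No member was called by kit in GABAergic amacrine cells (0 of 7, beside 8.10% of genes) or horizontal cells (0 of 5, beside 0.735%). Within batch 3, however, *Rbpms* was called in GABAergic amacrine cells (log2 difference -1.79, adjusted p = 0.00503), 1 of 7 members tested. The share of all genes called in that batch 3 fit is not given here. Whether these labels differ was not tested.

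Genes with a pattern over the 11 retinal labels like that of the 9 members were found by Pearson correlation with the mean of the members, among 10491 genes. The labels share libraries and depth, so this is a description. The closest was *Nrn1*, which encodes the neurite growth protein neuritin (r = 0.985), at 79.2 CPM in RGCs and 4.88 in the next label. *D130009I18Rik* (r = 0.972), *2600014E21Rik* (0.947), *Tbx20* (0.946) and *Gm26632* (0.941) came next, then *Atp6ap1l*, *Ccdc172*, *Trarg1*, *Coro6* and *Srgap1*, the last at r = 0.913. Taken singly, *Sncg* and *Nefl* were each other's closest gene (r = 0.972). *Pou4f1* was closest to *Nrn1* (0.987) and *Tbx20*, *Pou4f2* to *9130024F11Rik* (0.985) and *Coro6*, and *Pou4f3* to *Ccdc172* (0.940) and *Tbx20*. *Rbpms* was closest to *Ahnak2* (0.967) and *Sncg*, *Nefm* to *Srgap1* (0.947) and *Coro6*, and *Thy1* to *Tmem163* (0.971) and *Lgi1*. *Nefh* stood alone, closest to *Serpinf1* (0.931) and *Hs3st3a1* (0.911), both highest in astrocytes.

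In the brain the levels of the neurofilament genes were led by 1 label. Glut_20, a label of 499 nuclei, had *Nefl* at 853 CPM, *Nefm* at 576 and *Nefh* at 359, and it held 53.6%, 39.7% and 38.9% of their UMIs. The neuron label Glut_1, of 3735 nuclei, held 24.4%, 42.2% and 38.5%. The nuclei of Glut_20 also had *Thy1* at 462 CPM and *Sncg* at 89.4. For each of these 5 genes its level was the highest among the 21 labels. The name Glut_20 points to glutamatergic neurons, but its nuclei also carried inhibitory and glial markers: *Slc17a7* stood at 504 CPM, *Gad1* at 209 and *Mbp* at 1507. They were shallow, with a median of 815 UMIs, and 1.53% of their UMIs came from mitochondrial genes. The markers therefore go against a single cell type, and the label is used here only as a name.

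The distance to the next label varied. For *Sncg* it was small, with the label CP_6 at 57.2 CPM. For *Nefl* vascular smooth muscle cells (31.0 CPM, 56 UMIs) and the neuron label Glut_1 (24.1) came next, and their 95% Poisson intervals overlapped. *Nefm* was at 38.0 CPM in Glut_1 and 14.7 in Glut_21, intervals that did not overlap. *Nefh* was at 22.8 CPM in Glut_21 and 22.0 in Glut_1, within each other's intervals, and *Thy1* at 53.4 in Glut_19 and 36.9 in Glut_1, with intervals apart. All such intervals, in retina and brain, cover counting error only.

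The RGC genes had other sources in the brain. *Rbpms* was highest in pericytes (2022 CPM, 265 UMIs), then in vascular smooth muscle cells (620) and endothelial cells (558), the latter with 73.1% of its UMIs. *Sncg* had 63.3% of its UMIs in the label CP_6 at 57.2 CPM. *Pou4f1* was seen mostly in Glut_1, with 65 of its UMIs at 5.73 CPM, and Glut_20 lay at 7.09 from 5 UMIs. *Pou4f2* had 14 UMIs in all, 9 of them in Glut_1.

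**Figure D3:**
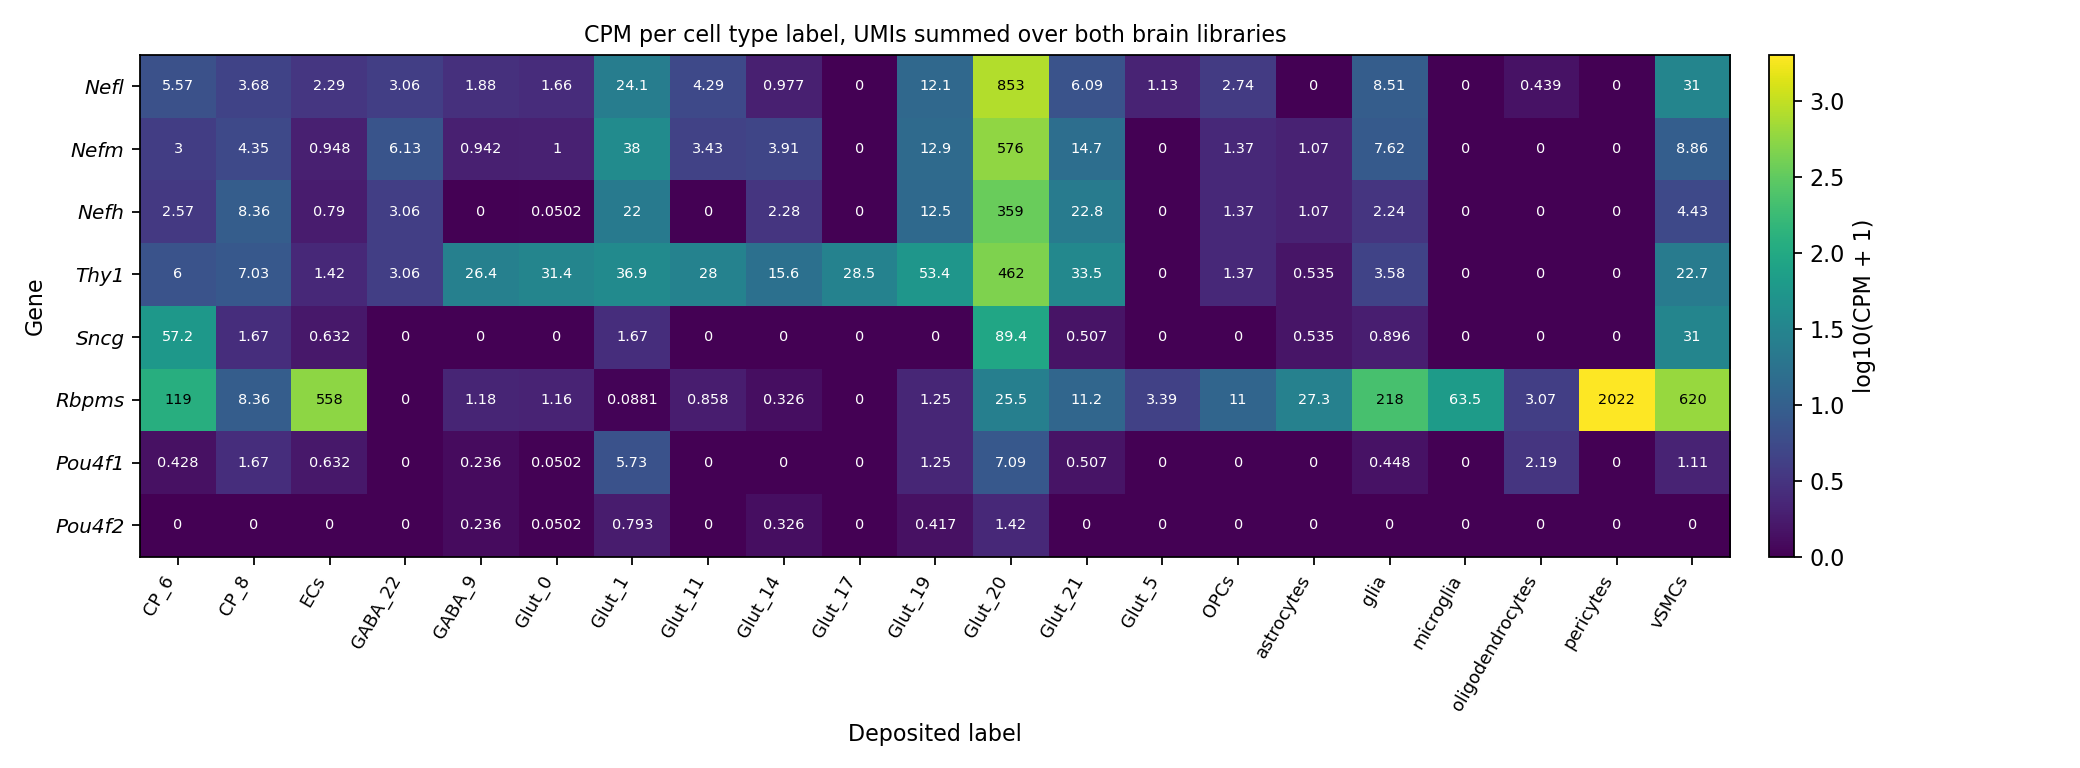
CPM of the 8 genes listed for the brain (vertical axis) in the 21 deposited labels (horizontal axis), with UMIs summed over both libraries, printed in each cell and coloured by log10(CPM + 1). Glut_20 is highest for *Nefl*, *Nefm* and *Nefh*, at 853, 576 and 359 CPM, and pericytes are highest for *Rbpms* at 2022.

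Between genotypes the brain has 1 library on each side, so no test was made. Over all 11 neuron labels the control had *Nefl* at 22.8 CPM (718 UMIs) and the CKO library at 13.1 (260 UMIs), a ratio of 0.574 with a 95% interval of 0.496 to 0.662. *Nefm* was at 20.8 and 14.7 CPM (ratio 0.706, 0.613 to 0.811) and *Nefh* at 12.6 and 9.51 (0.753, 0.630 to 0.897). *Thy1* was at 36.8 and 36.5 CPM (0.992, 0.903 to 1.09). The intervals of the 3 neurofilament genes lie below 1, and that of *Thy1* includes 1. Of 13969 genes with at least 50 UMIs in neurons, 4335 (31.0%) had an interval below 1 and 2913 (20.9%) an interval above 1, against 3 and 1 of 7 members, so such intervals were common. Over nuclei with at least 1000 UMIs the *Nefl* ratio was 0.494.

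Glut_20 was itself less frequent there, with 329 of 8229 neuron nuclei in the control (4.00%) and 170 of 8366 in the CKO library (2.03%), or 1.67% and 0.895% of neuron UMIs. Without this label, a choice made after seeing the data, *Nefm* had a ratio of 0.898 (0.750 to 1.07) and *Nefh* of 1.03 (0.819 to 1.29), both with intervals that include 1, while that of *Nefl* was 0.568 (0.447 to 0.716). In Glut_20 alone *Nefl* had a ratio of 1.07 (0.891 to 1.29), *Nefm* of 0.904 (0.711 to 1.14), or 1.28 as a mean over nuclei, and *Nefh* of 0.861 (0.630 to 1.16), or 1.01 as a mean over nuclei. In Glut_1 *Nefl* went from 29.0 CPM in control to 16.5 in CKO nuclei, a ratio of 0.569 (0.429 to 0.747), while *Nefm* (0.922, 0.753 to 1.12) and *Nefh* (0.866, 0.661 to 1.13) had intervals that include 1. Of 13117 genes with enough UMIs outside Glut_20, 3605 (27.5%) had an interval below 1 and 3000 (22.9%) an interval above 1, as had 1 and 1 of 6 members. In Glut_0 *Nefl* (28 control and 5 CKO UMIs) had a ratio of 0.250 (0.0755 to 0.657), and *Nefm* had 20 control and 0 CKO UMIs. In Glut_14 both *Nefm* (3 control and 9 CKO UMIs, ratio 4.37, 1.09 to 25.1) and *Nefh* (1 and 6 UMIs, 8.74, 1.06 to 402) were above 1. The counts in Glut_0 and Glut_14 lie below the minimum of 50 UMIs asked of all genes. For single labels the share of all genes with such an interval is not given here. Median depth of neuron nuclei was 2380 UMIs (control) and 1847 UMIs (CKO), and its part in these ratios was not tested.

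Set against all genes, a ratio of at least 2 or at most 0.5 was found for 1216 (8.70%) of these 13969 genes, 147 higher and 1069 lower in the CKO library, and for 1 of 7 members. Without Glut_20 the counts were 1038 (7.91%) of 13117 genes and 1 of 6 members. In both cases the member was *Rbpms*, over all neurons at 1.11 CPM (35 UMIs) in control and 2.36 CPM (47 UMIs) in CKO neurons, a ratio of 2.13 (1.35 to 3.40). In endothelial cells, its main source in this tissue, *Rbpms* was at 492 CPM (control) and 614 CPM (CKO), a ratio of 1.25 (1.19 to 1.31). The part of endothelial RNA in the neuron value was not tested. *Sncg* had a neuron ratio of 0.851 (0.523 to 1.36), but 2.37 (1.39 to 4.01) in Glut_20 and 0.0828 (0.00199 to 0.521) in the other neuron labels, the latter from 19 control UMIs and 1 CKO UMI. The ratio in Glut_20 was 4.61 over nuclei with at least 1000 UMIs and 1.03 as a mean over nuclei, and the share of Glut_20 nuclei with a *Sncg* UMI was 8.21% in the control and 5.88% (10 nuclei) in the CKO library. In CP_6, the label with most of its UMIs, *Sncg* had a ratio of 0.670 (0.492 to 0.900), and *Pou4f1* had a neuron ratio of 1.03 (0.630 to 1.67).

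Across the 21 brain labels the genes most like the mean of the 3 neurofilament genes were *Srxn1* (r = 0.925), *Tuba4a* (0.914), *Rab3a* (0.906), *Magee1* (0.891), *Cend1* (0.891), *Ccdc184*, *Pcsk1n*, *Nap1l2*, *Hapln4* and *Atp6v0e2* (0.880), among 14214 genes. *Tuba4a*, an alpha-tubulin, was at 443 CPM in Glut_20 and *Rab3a*, a GTPase of synaptic vesicles, at 644, and both were next highest in vascular smooth muscle cells, at 19.4 and 20.5. As in the retina, the labels share libraries and depth.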

How the data were processed

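The deposited matrices hold UMI counts per gene and nucleus. Per the study's methods the authors made these counts with PIPseeker on a GRCm39 index. They removed empty droplets and background with CellBender and doublets with SOLO. Mixed nuclei and clusters of CKO replicates 4 and 5 were taken out by hand. The submitters' processing notes name mm10 in place of GRCm39, and Seurat, which the methods also name for later steps. No further nuclei were removed. Cell type labels, batches and kit versions come from the deposited metadata. The members and lists were chosen with earlier results of these data known.

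UMIs were summed per label and library with Python 3.11.15, numpy 2.4.6, pandas 2.3.3 and scipy 1.17.1. A label entered a comparison in a library with at least 10 nuclei and 50000 UMIs, and tests took the 23687 genes with UMIs in every retina batch that passed edgeR's filterByExpr. Genotypes were compared with edgeR 4.0.16 in R 4.3.3 (glmQLFit and glmQLFTest, TMM scaling, kit as covariate, two-sided, Benjamini-Hochberg adjustment over all genes tested, threshold 0.05), with standard errors taken from the F statistic. DESeq2 1.42.0 was an alternative. The kit difference was read from the same fit and is reported after seeing the data. The fits were tested on simulated data, and since the outcome is not reported here, it lends no weight to the results. The control spread could not be measured with 1 library.

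Intervals are exact 95% Poisson, Clopper-Pearson or conditional binomial intervals, and a count of 0 allows up to 3 counts. Named genes, beside the 9 members, were those called from 3 gene lists in RGCs, the 5 of smallest p in each direction in RGCs, and for likeness the 10 genes with the highest Pearson r to the mean scaled log2(CPM + 1) of the members, and 2 per member, among genes of at least 20 CPM in 1 label. Other settings tried were the scaling, the low-count filter, the covariate, the libraries and nuclei used, the weighting of nuclei and thinning to 1000 UMIs. Coordinates are from GENCODE vM39 on GRCm39. UMAP coordinates were not used here.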

Additional observations from a re-analysis of the deposited data

Results flagged for a closer look

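In 11 of 43 groups of CKO libraries, each holding 1 gene in 1 retinal label, a single library lay far from the nearest of the others relative to the whole range of the group, where chance alone marks about 1 group in 20. That rate does not hold for sparse counts, since 1 UMI in a single library with the others at 0 is always marked, so the number of groups is not read against it. No group of RGC nuclei was among them. CKO replicate 10 was highest for *Nefl* in GABAergic amacrine cells (22.4 CPM from 55 UMIs, next 12.4), *Nefm* in GABAergic amacrine cells (16.7 CPM from 41 UMIs, next 9.64), *Rbpms* in horizontal cells (74.1 CPM from 25 UMIs, next 28.6) and *Nefm* in horizontal cells (38.6 CPM from 13 UMIs, next 18.0). In astrocytes the same library was highest for *Nefl* (71.5 CPM from 8 UMIs, next 24.9) and for *Pou4f1* (8.94 CPM from 1 UMI, the others at 0). *Nefh* in horizontal cells was highest in CKO replicate 8, at 35.1 CPM from 27 UMIs against 13.5 in the next library. *Nefm* in astrocytes was highest in CKO replicate 1, at 26.6 CPM from 4 UMIs against 8.94. For *Pou4f3* the values rest on few UMIs: 0.954 CPM from 3 UMIs in GABAergic amacrine cells of CKO replicate 7, 0.522 CPM from 2 UMIs in glycinergic amacrine cells of CKO replicate 9, and 1.01 CPM from 1 UMI in horizontal cells of CKO replicate 9. What sets these libraries apart was not tested.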

How the results depend on the processing

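No paired analysis was possible, since each tissue has 1 control library and the sample labels give no pairing of control and CKO libraries. Of 708 alternative values for the genotype and kit fold changes of the members, 676 kept their direction and side of the threshold, 28 changed direction, 2 were no longer past the threshold and 2 came to pass it. In RGCs, DESeq2 called 1 gene and the batch of the control 5, while the log2 fold change without the kit term was 0.091 for *Pou4f2* and 0.24 for *Nefl*, that of *Sncg* was -0.074 without CKO replicates 4 and 5 and -0.36 with only CKO libraries of over 1000 CPM of *Xist*, and its kit difference was 0.18 within batch 3, an alternative chosen after seeing the data. In whole retina DESeq2 called 13 genes, the batch of the control 4 (*Fgf2os*, *Hbb-bs*, *Hmox1* and *Lilrb4a*, named after their values were seen), edgeR with the batch covariate 0 (222 at an unadjusted p below 0.05) and with the *Xist* libraries 0 (56). *Pou4f1* was at 0.086 with the batch covariate and 0.071 in the batch of the control, *Pou4f2* at 0.22 without the kit term and 0.039 with the *Xist* libraries, *Nefl* at 0.53 and *Nefm* at 0.14 without the kit term, and the kit difference of *Pou4f3* at -0.45 within batch 3. In GABAergic amacrine cells DESeq2 called 3 genes (*Gm17167*, *Eif2s3y* and *Hbb-bs*), the batch of the control 2 (*Gm17167* and *Lama3*) and edgeR with the *Xist* libraries 0 (211 at an unadjusted p below 0.05), again named after their values were seen. *Rbpms* was at -0.0066 without the kit term and -0.46 both with the batch covariate and in the batch of the control, *Nefl* at 0.075 without the kit term and 0.083 with the *Xist* libraries, and *Thy1* at 0.0094 with library size alone. In glycinergic amacrine cells 18 genes were called without the low-count filter, 32 by DESeq2, 12 in the batch of the control and 1, *Adamts19*, with the *Xist* libraries, and *Rbpms* was at -0.20 with the batch covariate, *Nefl* at 0.45 and *Nefh* at 0.053 without the kit term. In horizontal cells 2 genes were called without the filter (*Gm17167* and *Xlr4a*), 5 in the batch of the control (those and *Erbb4*, *Hbb-bs* and *Pm20d1*), 1 without CKO replicates 4 and 5 (*Gm17167*) and 1 with the *Xist* libraries (*Gm15283*), *Sncg* was at -0.32 with the batch covariate, and the kit difference of *Nefl* at -0.58 within batch 3. Library size alone moved the median log2 fold change of all genes there from 0.01 to 0.13. Leaving out each CKO replicate gave 0 genes called by edgeR in RGCs each time (212 to 331 at an unadjusted p below 0.05), 1 to 2 in whole retina (2 without CKO replicate 7), 1 in GABAergic amacrine cells, 3 to 9 in glycinergic amacrine cells (9 without CKO replicate 1 or 7, 5 without 2) and 0 to 1 in horizontal cells (1 without CKO replicate 5). *Sncg* ran from -0.074 (without CKO replicate 5) to 0.31 in RGCs, and in GABAergic amacrine cells *Rbpms* ran from -0.092 to 0.48, below 0 without CKO replicate 6 or 7, and *Thy1* from -0.10 to 0.092, above 0 without CKO replicate 2 or 7. Of 144 alternative levels 136 lay within 1 SD of the CKO libraries from the main level. In the brain, the mean over nuclei gave ratios of 0.483 for *Sncg* and 0.901 for *Thy1* over all neurons, 0.426 for *Nefl* in Glut_1, and 1.03 for *Sncg* and 1.28 for *Nefm* in Glut_20. Nuclei with at least 1000 UMIs gave 0.494 for *Nefl* over all neurons and 4.61 for *Sncg* in Glut_20. Without Glut_20, chosen after seeing the data, ratios were 0.0828 for *Sncg*, 0.898 for *Nefm* and 1.03 for *Nefh*. The other 66 of 76 alternative brain ratios lay within the counting interval, and 18 of 19 alternative values of the RGC share difference kept their sign. The other was -0.118 percentage points, over nuclei with at least 1000 UMIs without CKO replicate 4, chosen after seeing the data. Most of the 19 settings kept CKO replicate 4, with its RGC share of 24.0%, so this count is not independent of that library. The difference was 2.27 percentage points with all CKO libraries and 0.293 without CKO replicate 4. Where a setting changed a value, the cause was not tested. The depth of the control RGCs limits *Pou4f3*, with 3 UMIs, and that of the control astrocytes all members there.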
